A study of Mus musculus with 56 samples.

Results

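Wnt5a, Wnt6, Wnt10a, Lgr5, Sfrp1, Dkk3, Axin2, Lef1 and Nkd1 are 9 genes of the Wnt pathway, followed here across 56 p53null mouse mammary tumors. They were taken by the gene symbol of the array annotation. They have 24 probe sets on the array, and each gene was read from its brightest one by the mean over the 56 arrays. The 9 genes are 9 of the 18194 genes that the array measures under a single symbol. Of the 9, 7 passed the filter on low values and were among the 12508 genes tested, and Lgr5 and Nkd1 did not.

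All tumors grew from p53null mammary tissue that had not itself been irradiated, placed in cleared inguinal fat pads of BALB/c females, which had lost their own mammary epithelium at 3 weeks. The hosts were irradiated or sham-irradiated 3 days before the transplant, so the tumor cells of every group share the loss of p53 and only the host received radiation. Among wild-type hosts 9 tumors came with sham irradiation and 23 with irradiation. Among TGFb1 heterozygote hosts the numbers were 6 and 18, which makes 4 groups. Each tumor was measured on 1 array of bulk tumor RNA. The labels name no radiation dose, and whether 2 tumors came from the same host is not given, so the p-values measure the spread between these tumors.

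Wnt proteins are secreted, lipid-modified ligands that bind Frizzled receptors. In the canonical branch they stabilise β-catenin, which joins TCF/LEF factors on DNA and switches on target genes, several of which encode inhibitors of the pathway itself. Wnt signals guide the mammary bud and the growth of ducts, and Wnt1 is a classical mammary oncogene in mice.

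Array medians were 5.92 to 6.00 on the log2 scale for wild-type hosts and 5.57 to 5.71 for heterozygote hosts, a gap between 2 sets of arrays with no overlap. Levels were therefore compared within a host genotype only, and those of both genotypes stand side by side without a test. The keratins Krt8 and Krt18 and the epithelial adhesion molecules Epcam and Cdh1 lay above the median of all values, 5.83, on all 56 arrays. The mean log2 level of 14 epithelial junction genes fell into 2 sets with a gap between them, called clusters here and not tested as such. It was 5.98 to 8.93 in 7 tumors and 10.09 to 10.94 in 25 tumors of wild-type hosts, and 7.84 to 8.74 in 4 and 9.61 to 10.99 in 20 tumors of heterozygote hosts. The 18S control was lower in sham-irradiated than in irradiated wild-type hosts (11.28 ± 1.78, SD, n = 9, against 12.74 ± 0.90, n = 23, exact two-sided permutation p = 0.00444, adjusted p = 0.133 over 30 measures). No member passed with the 18S control as a covariate or without the arrays of 18S control below 11 (4 and 2 of wild-type and 1 and 2 of heterozygote hosts, sham and irradiated). Without those arrays the Wnt5a and Lef1 differences in wild-type hosts and the Wnt10a and Lgr5 differences in heterozygote hosts changed sign.

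Host irradiation was compared with sham irradiation within each host genotype, which asks whether the irradiated host goes with other levels of Wnt genes in a tumor grown from tissue that was not irradiated. No member passed in either genotype with limma at a Benjamini-Hochberg adjusted p of 0.05. That is 0 of 7 members in wild-type hosts, where 0 of 12508 genes (0%) passed, and 0 of 7 in heterozygote hosts, where 0 of 12508 (0%) passed. For the difference between the 2 irradiation effects 0 of 7 members and 0 of 12508 genes (0%) passed. For their average 0 of 7 members and 1 of 12508 genes (0.00799%) passed. At an unadjusted p under 0.05, 1 of 7 members stood in wild-type hosts against 884 genes (7.07%), and 0 of 7 in heterozygote hosts against 730 genes (5.84%). The counts were 2 of 7 for the difference against 605 genes (4.84%), and 0 of 7 for the average against 972 genes (7.77%). Lgr5 and Nkd1 were tested in a fit of all 18194 genes without the filter, where 0 of these 2 passed in any comparison. In that fit 0 genes (0%) passed in wild-type hosts, in heterozygote hosts and for the difference, and 1 gene (0.0055%) passed for the average. Its unadjusted counts were 1486 genes (8.17%), 1068 (5.87%), 1031 (5.67%) and 1432 (7.87%), in the same order. The median log2 difference of the 7 tested members was 0.39 in wild-type hosts and -0.56 in heterozygote hosts, and the groups of every member overlapped. Over all 12508 genes the medians were -0.003 and 0.009. The medians of the members were not tested, and the members were read in the same tumors. Single sham tumors moved several of the heterozygote differences, as given below.

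**Figure D1:**
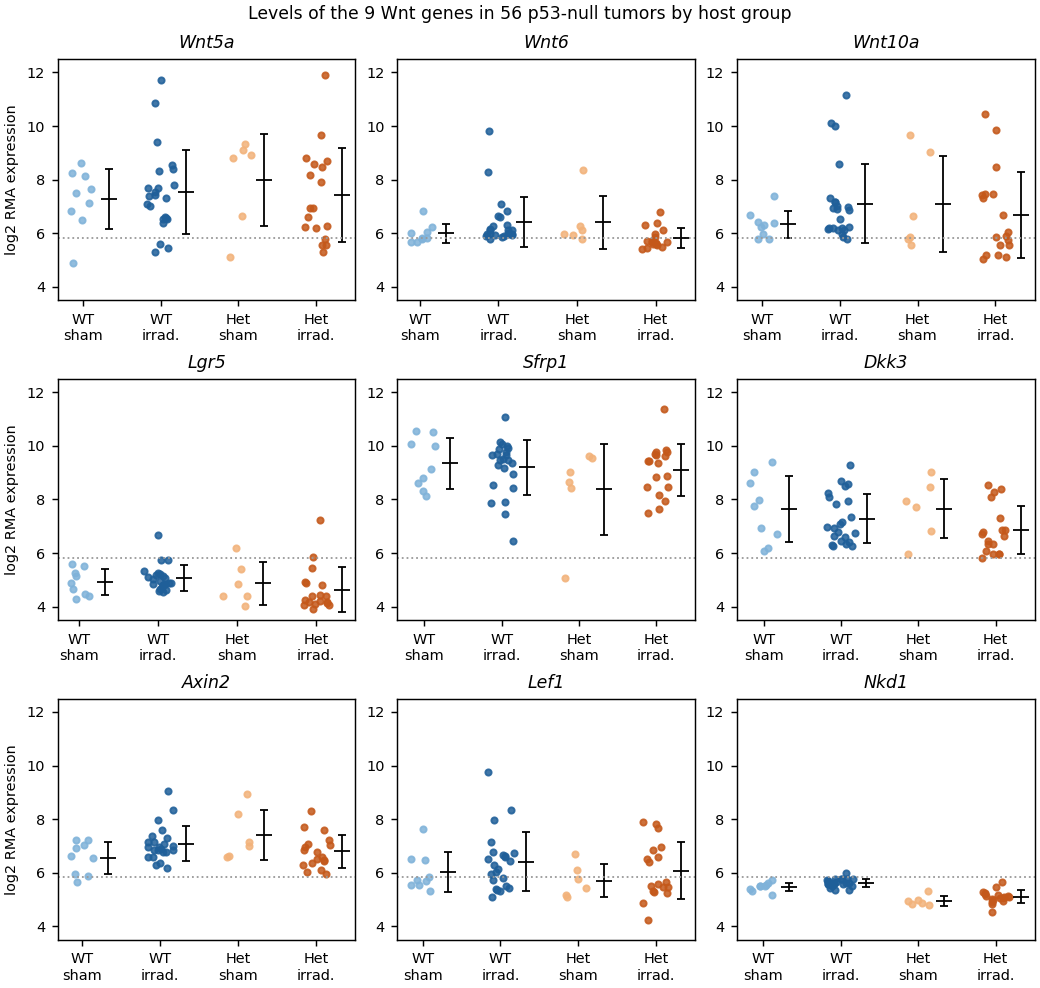
Log2 RMA expression (y axis) of each of the 9 Wnt genes in the 4 host groups (x axis; WT, wild-type hosts, Het, TGFb1 heterozygote hosts). Points are tumors (n = 9, 23, 6 and 18), bars are the group mean ± SD, and the dotted line is the median of all array values, 5.83. All 4 groups of each gene overlap within a host genotype, and Lgr5 and Nkd1 lie mostly below the dotted line.

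Among the ligands, Wnt5a acts mainly outside the β-catenin branch, through Ror receptors and planar cell polarity, and is made by mammary stroma and epithelium. Its log2 level ran from 4.89 to 8.63 (median 7.50) in tumors of sham-irradiated wild-type hosts and from 5.31 to 11.73 (median 7.40) in those of irradiated wild-type hosts. In heterozygote hosts it ran from 5.10 to 9.32 (median 8.86) with sham irradiation and from 5.28 to 11.91 (median 6.94) with irradiation. It had the widest range of the 9 genes, 7.02 log2 units over 56 tumors. Single tumors made that range: tumor 32 of an irradiated heterozygote host reached 11.91, and tumors 16 and 53 of irradiated wild-type hosts reached 11.73 and 10.86. Irradiated minus sham was 0.25 ± 0.61 (SE) in wild-type hosts and -0.56 ± 0.73 in heterozygote hosts (limma, adjusted p = 0.966 and 0.959). Above the sham median stood 2 of 18 tumors of irradiated heterozygote hosts and 10 of 23 of irradiated wild-type hosts. The heterozygote sham median rests on 6 tumors, and irradiated tumors 4, 50 and 33 lay just under it, at 8.83, 8.69 and 8.57. The heterozygote difference was -0.29 without sham tumor 15 and -1.14 without sham tumor 52.

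Wnt6 and Wnt10a encode canonical ligands of embryonic ectoderm and skin appendages, and Wnt10a also of the mammary bud. They are next to each other among the protein-coding genes of chromosome 1 in the RefSeq annotation of GRCm38.p6. Wnt6 was low in most tumors, from 5.66 to 6.83 (median 5.84) with sham irradiation and from 5.78 to 9.81 (median 6.11) with irradiation in wild-type hosts. In heterozygote hosts it ran from 5.77 to 8.36 (median 6.05) with sham irradiation and from 5.41 to 6.79 (median 5.70) with irradiation. The 2 genotypes thus lay on opposite sides: 22 of 23 tumors of irradiated wild-type hosts stood above the sham median, and 12 of 18 tumors of irradiated heterozygote hosts stood below the lowest sham value. The differences were 0.42 ± 0.28 and -0.59 ± 0.33 (adjusted p = 0.814 and 0.896). The heterozygote effect minus the wild-type effect was -1.01 ± 0.43 (p = 0.0233, limma adjusted p = 0.999). Tumor 58 of the heterozygote sham group carried much of its own side, and without it the heterozygote difference was -0.19 and the difference of effects -0.62. Without tumor 16 of an irradiated wild-type host, at 9.81, the wild-type difference was 0.27.

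Wnt10a ran from 5.77 to 7.41 (median 6.32) with sham irradiation and from 5.78 to 11.14 (median 6.87) with irradiation in wild-type hosts. It ran from 5.58 to 9.66 (median 6.25) with sham irradiation and from 5.04 to 10.45 (median 5.97) with irradiation in heterozygote hosts. A few tumors stood far above the rest in 3 of the 4 groups: tumors 12, 59 and 25 of irradiated wild-type hosts at 11.14, 10.12 and 9.99, tumors 19 and 58 of sham heterozygote hosts at 9.66 and 9.04, and tumors 7 and 56 of irradiated heterozygote hosts at 10.45 and 9.86. Irradiated minus sham was 0.78 ± 0.56 in wild-type hosts and -0.41 ± 0.67 in heterozygote hosts (adjusted p = 0.840 and 0.972). The heterozygote value was 0.10 without sham tumor 19.

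Lgr5, the R-spondin receptor that marks Wnt-dependent stem cells of intestine and skin, was low in most tumors and lay above the median of all values on 4 of 56 arrays. The exceptions were tumor 56 of an irradiated heterozygote host at 7.25, tumor 11 of an irradiated wild-type host at 6.67, tumor 19 of a sham heterozygote host at 6.20 and tumor 6 of an irradiated heterozygote host at 5.83. The group medians were 4.89 (range 4.29 to 5.61) and 4.97 (4.54 to 6.67) for sham-irradiated and irradiated wild-type hosts. They were 4.62 (4.01 to 6.20) and 4.33 (3.89 to 7.25) for heterozygote hosts. Without the filter the differences were 0.17 ± 0.25 and -0.24 ± 0.30 (limma adjusted p = 0.912 and 0.980), smaller than their standard errors.

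Of the secreted inhibitors, Sfrp1 binds Wnt ligands outside the cell and is often silenced in human breast cancer. In wild-type hosts it ran from 8.12 to 10.57 (median 9.13) with sham irradiation and from 6.43 to 11.07 (median 9.47) with irradiation. It ran from 5.07 to 9.61 (median 8.83) in sham heterozygote hosts and from 7.49 to 11.39 (median 9.39) in irradiated ones. Sham tumor 52 of a heterozygote host was 3.35 below the next lowest tumor of its group. The differences were -0.14 ± 0.42 and 0.71 ± 0.50 (adjusted p = 0.973 and 0.922), and the heterozygote value was 0.05 without tumor 52.

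Dkk3 is a divergent Dickkopf protein that does not block canonical Wnt receptors as Dkk1 does. Its level ran from 6.07 to 9.41 (median 7.77) with sham irradiation and from 6.25 to 9.30 (median 6.97) with irradiation in wild-type hosts. It ran from 5.97 to 9.03 (median 7.82) with sham irradiation and from 5.83 to 8.55 (median 6.69) with irradiation in heterozygote hosts. In both genotypes most tumors of irradiated hosts were below the sham median, 15 of 23 and 14 of 18. The differences were -0.35 ± 0.38 and -0.80 ± 0.46, and -0.58 ± 0.30 on average (p = 0.0571, limma adjusted p = 0.652). Its second probe set gave -0.07 and -0.75.

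Axin2, a scaffold of the β-catenin destruction complex and a standard readout of canonical signalling, gave the lowest p of the members for the difference of effects. In wild-type hosts it ran from 5.65 to 7.23 (median 6.62) with sham irradiation and from 6.16 to 9.05 (median 6.97) with irradiation. It ran from 6.59 to 8.93 (median 7.07) with sham irradiation and from 5.96 to 8.32 (median 6.68) with irradiation in heterozygote hosts. The values overlapped, but they lay on opposite sides: 18 of 23 tumors of irradiated wild-type hosts were above the sham median and 14 of 18 tumors of irradiated heterozygote hosts were below it. The difference was 0.52 ± 0.26 in wild-type hosts (p = 0.0491, adjusted p = 0.705) and -0.62 ± 0.31 in heterozygote hosts (p = 0.0531, adjusted p = 0.855). The test of the difference between the 2 effects gave -1.14 ± 0.41 (p = 0.00691), which did not pass over all genes (limma adjusted p = 0.999). Without sham tumor 52, whose Axin2 of 8.93 was the highest of its group, the heterozygote difference was -0.32 and the difference of effects -0.84.

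Lef1, one of the TCF/LEF factors and itself a Wnt target that is needed for the mammary bud, ran from 5.31 to 7.63 (median 5.71) with sham irradiation and from 5.10 to 9.75 (median 6.29) with irradiation in wild-type hosts. It ran from 5.09 to 6.71 (median 5.60) with sham irradiation and from 4.22 to 7.91 (median 5.61) with irradiation in heterozygote hosts. The differences were 0.39 ± 0.38 and 0.37 ± 0.46 (adjusted p = 0.903 and 0.959), so the point estimates of the 2 genotypes lay close together, with a difference of effects of -0.02 ± 0.60. The wild-type value was -0.15 without the tumors of low 18S control. Tumor 57 of an irradiated wild-type host, at 9.75, stood 1.42 above the next tumor.

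Nkd1, an intracellular antagonist that binds Dishevelled and is induced by Wnt signals, had the narrowest range. It lay between 5.18 and 5.99 in wild-type hosts and between 4.52 and 5.64 in heterozygote hosts, above the median of all values on 1 of 56 arrays. With irradiation 20 of 23 and 16 of 18 tumors were above the sham medians of 5.49 and 4.91. The differences were 0.15 ± 0.08 and 0.14 ± 0.09, on average 0.15 ± 0.06 (p = 0.0156, limma adjusted p = 0.517 without the filter). Its 3 dimmer probe sets did not share 1 sign in heterozygote hosts, at -0.02, -0.02 and 0.38. Positive differences in wild-type hosts were more frequent among dim genes. They were found for 10064 of 18194 genes without the filter and 6164 of 12508 with it. In heterozygote hosts the counts were 9259 and 6484. Whether Nkd1 differs from other dim genes was not tested.

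**Figure D2:**
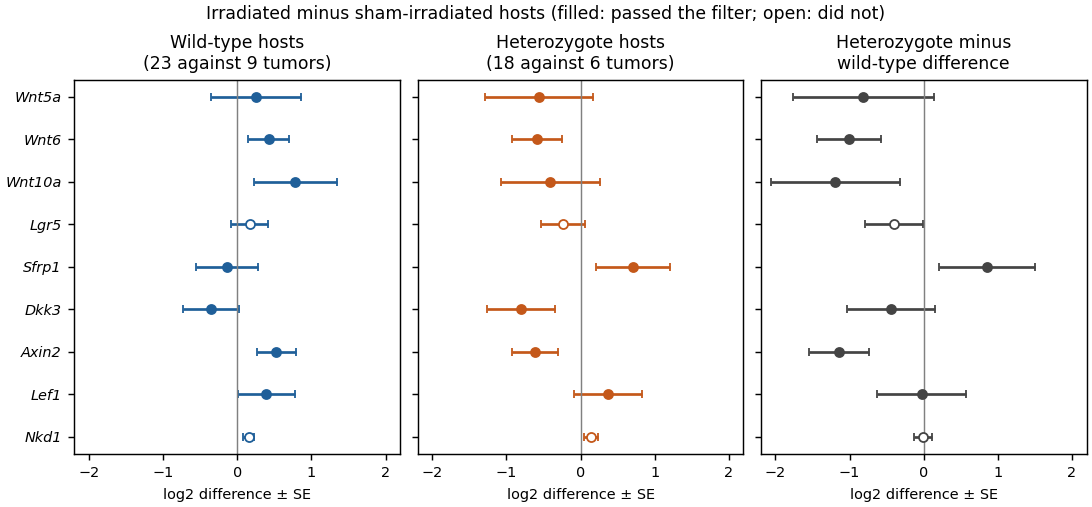
Log2 difference ± SE, irradiated minus sham-irradiated hosts (x axis), for the 9 Wnt genes (y axis) in wild-type hosts, in heterozygote hosts, and the heterozygote minus the wild-type difference. Filled points are genes that passed the filter on low values. Axin2 stands at 0.52 and -0.62 and Wnt6 at 0.42 and -0.59, and no point passed the adjusted threshold.

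The other probe sets of a gene were set against the brightest one over the tumors of a host genotype. For Wnt5a the other 2 with a mean above the median of all values correlated with it at r = 0.97 to 0.99. The 4 other probe sets of Sfrp1 did so at r = 0.71 to 0.98, and the second one of Dkk3 at 0.97 in both genotypes. Dim probe sets differed among the genes. The dimmest one of Wnt5a (mean 4.23) had 0.77 and 0.75. The second ones of Lef1 (mean 4.21) and Wnt6 (mean 4.29) followed the brightest at 0.96 and 0.92 and at 0.93 and 0.92 in wild-type and heterozygote hosts. The second ones of Axin2 (mean 3.60) and Lgr5 (mean 4.27) had 0.40 and 0.78 and 0.17 and -0.03, and the 3 other ones of Nkd1 had 0.26 to 0.49.

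The promoter table of RefSeq for GRCm38.p6, with windows of 250 bases before to 50 after a transcript start, was searched for the letters of the TCF/LEF core, CTTTGA or CTTTGT, on either strand, since Axin2 and Lef1 are targets of these factors. It held 7 windows for 4 members, Wnt6, Axin2, Lef1 and Nkd1, and 1 of the 7, at an internal start of Lef1, held matches. That window and that of Axin2 are printed on the plus strand, with matches in capitals.

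Axin2, chr11:108920099-108920398: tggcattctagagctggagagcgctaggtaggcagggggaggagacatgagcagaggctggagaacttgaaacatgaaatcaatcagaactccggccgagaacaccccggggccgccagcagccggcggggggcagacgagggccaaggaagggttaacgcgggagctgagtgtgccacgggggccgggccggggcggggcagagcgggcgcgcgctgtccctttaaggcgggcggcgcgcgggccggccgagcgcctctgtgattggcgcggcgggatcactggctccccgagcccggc
Lef1, chr3:131156044-131156343: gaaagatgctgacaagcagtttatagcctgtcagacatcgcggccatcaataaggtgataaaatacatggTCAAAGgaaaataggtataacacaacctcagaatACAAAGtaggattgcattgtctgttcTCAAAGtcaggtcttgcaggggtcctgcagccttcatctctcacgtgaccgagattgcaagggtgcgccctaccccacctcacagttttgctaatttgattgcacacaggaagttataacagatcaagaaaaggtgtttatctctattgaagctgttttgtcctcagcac

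The Lef1 window held 3 matches, which start 180, 146 and 120 bases before the transcript start, and the Axin2 window held none. Among all 32851 windows of the same length, 31.2% held at least 1 match and 1.14% at least 3. A match describes letters only, and these data hold no measure of binding.

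The rest of the pathway was read from 7 gene lists with 69 genes that passed the filter. None of the 69 passed for either host genotype, their difference or their average (limma, adjusted p of at least 0.523). At an unadjusted p under 0.05 there were 0, 4, 4 and 3 of 69 in that order, against the shares of all genes given above. The median log2 difference of the 69 genes was 0.07 in wild-type hosts and -0.01 in heterozygote hosts. In heterozygote hosts the 4 genes were Tle3, a Groucho corepressor (-0.36 ± 0.12, p = 0.00513), Pygo2, a β-catenin coactivator (-0.33 ± 0.13, p = 0.0163), the agonist Rspo2 (-0.17 ± 0.07, p = 0.0182) and Porcn, which attaches the lipid to Wnt proteins (-0.76 ± 0.36, p = 0.0403), with limma adjusted p-values from 0.676 to 0.838. For the difference of effects they were Tle3 (-0.33), Rspo2 (-0.23), the Dickkopf receptor Kremen1 (-0.52) and the Wnt-binding Sfrp5 (-0.24). In wild-type hosts the lowest p among the 69 was that of the kinase Csnk1e (-0.28, p = 0.0504), and the other Wnt targets of lowest p were Znrf3 at 0.40 and Ccnd1 at -0.39.

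Over the 56 tumors the members ranged from 1.48 (Nkd1) to 7.02 (Wnt5a) log2 units, and they were set against each other and against 13 lists of cell type and state markers across tumors. In bulk tumors fewer cells of a type and less RNA per cell cannot be told apart. Among 72 pairs of members (36 in each genotype) 0 passed an adjusted p of 0.05 over all tumors, 17 had an unadjusted permutation p under 0.05, and 3 passed with Spearman's rho. Dkk3 and Wnt5a had r = 0.45 (p = 0.00911, adjusted p = 0.109, rho = 0.57) in 32 tumors of wild-type hosts and r = 0.54 (p = 0.00666, adjusted p = 0.109, rho = 0.63) in 24 of heterozygote hosts. Without the 2 tumors of Wnt5a farthest from its median, r was 0.61 and 0.80. Among tumors with an epithelial junction score above 9, r was 0.28 (rho = 0.46, adjusted permutation p = 0.490) in 25 tumors of wild-type hosts. It was 0.43 (rho = 0.55, adjusted permutation p = 0.322) in 20 of heterozygote hosts. Without the 2 farthest of these tumors r was 0.49 and 0.75.

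The neighbours Wnt6 and Wnt10a had r = 0.42 and 0.44 (permutation p = 0.0326 and 0.0297, adjusted p = 0.162 for both). Within the 25 tumors of wild-type hosts with an epithelial junction score above 9, r was 0.83 (p = 0.00032, adjusted p = 0.0230), but rho was 0.38 and r was 0.27 without the 2 farthest tumors, so it rests on them. Tumor 12, with Wnt6 at 8.27 and Wnt10a at 11.14, was high in both. In the 20 such tumors of heterozygote hosts r was 0.48 with a rho of 0.06.

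Wnt10a and the target Axin2 had r = 0.53 (p = 0.00365, adjusted p = 0.109, rho = 0.59) in wild-type hosts and r = 0.43 (p = 0.0338, adjusted p = 0.162, rho = 0.53) in heterozygote hosts. Tumors 12 and 24 of irradiated wild-type hosts were high in both, with Wnt10a at 11.14 and 8.58 and Axin2 at 8.36 and 9.05. Above a junction score of 9, r was 0.68 in wild-type hosts (p = 0.00084, adjusted p = 0.0302, and 0.46 without the 2 farthest) and 0.20 in heterozygote hosts. The 3 targets did not move as 1 group. Axin2 and Lef1 had r = -0.14 and -0.33, Axin2 and Nkd1 0.05 and -0.20, and Lef1 and Nkd1 0.36 and 0.16, each with an adjusted permutation p above 0.05.

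**Figure D3:**
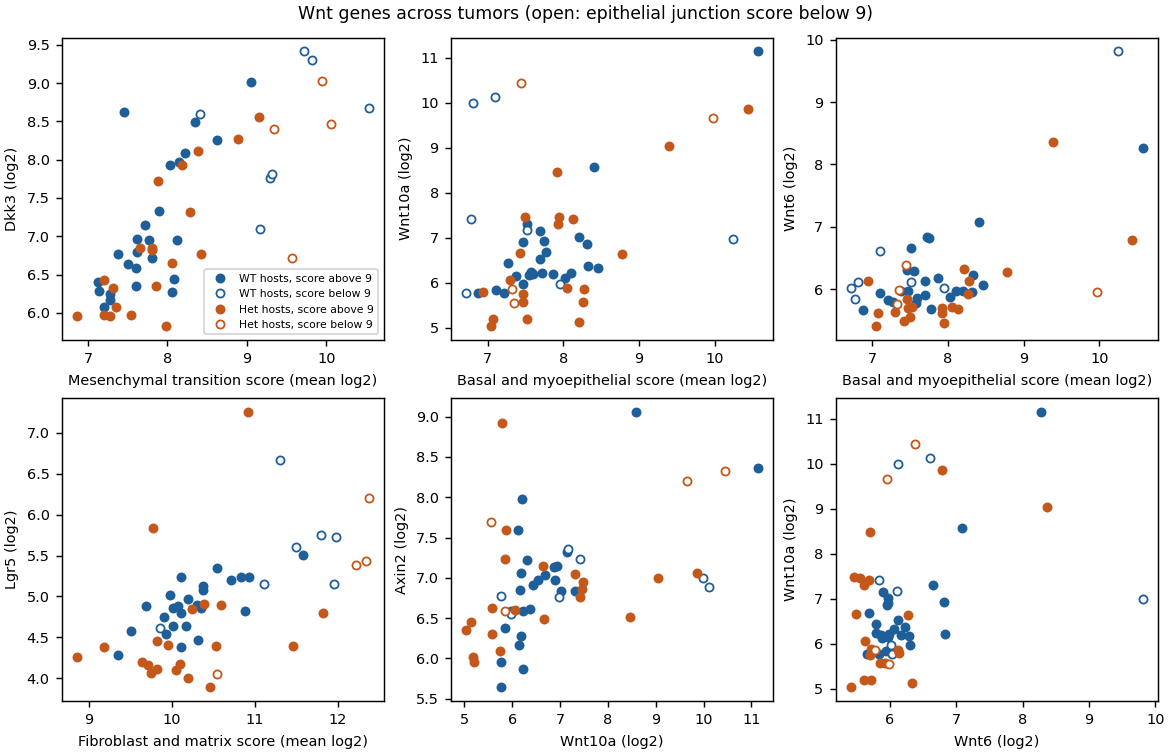
Each panel sets the log2 level of a Wnt gene against a marker list score (mean log2 level of the list) or another Wnt gene. Points are tumors, blue for wild-type and orange for heterozygote hosts, open where the epithelial junction score was below 9. Dkk3 climbs with the mesenchymal transition score in both genotypes (r = 0.73 and 0.82 over the filled points), while high Wnt6 and Wnt10a values belong to a few tumors.

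Of 234 relations between a member and a marker list (117 in each genotype), 23 passed an adjusted permutation p of 0.05 over all tumors and 10 passed over the tumors of junction score above 9, that is, within 1 of its 2 clusters, and 7 of the 23 did both. Over all tumors 3 relations, all of Dkk3, passed in both genotypes. Dkk3 with the mesenchymal transition list, which holds Zeb1, Zeb2, Twist1 and Vim, had r = 0.74 in 32 tumors of wild-type hosts and 0.80 in 24 of heterozygote hosts (adjusted permutation p = 0.000468 for both). Above the score of 9 it had r = 0.73 (rho = 0.69, p = 5e-05, adjusted p = 0.00351) in 25 tumors and 0.82 (rho = 0.74, p = 1e-05, the smallest the permutations can give, adjusted p = 0.00117) in 20. Without the 2 farthest of these tumors it was 0.79 and 0.69, and over the 7 tumors of wild-type hosts with a score below 9 it was 0.37 (exact p = 0.424). Dkk3 with the fibroblast and matrix list had r = 0.51 (adjusted permutation p = 0.0447) and 0.76 (adjusted p = 0.000468) over all tumors, and 0.43 and 0.85 (adjusted p = 0.00117) above the score of 9, where only the second passed. Dkk3 with the epithelial junction list passed in both genotypes over all tumors (adjusted permutation p = 0.0185 and 0.0449), which pools the 2 clusters. Within the upper cluster r was -0.38 and -0.48 (adjusted p = 0.338 and 0.236), and neither passed. The junction score has a narrower range there, which can lower r by itself, and fewer tumors make passing harder. The part of the 2 clusters in this relation was not tested.

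Wnt10a with the basal and myoepithelial list, which holds Krt5, Krt14 and Trp63, had r = 0.32 (adjusted permutation p = 0.259) in wild-type and 0.62 (adjusted p = 0.0347) in heterozygote hosts over all tumors, and so passed in 1 genotype. Above the junction score of 9, a restriction chosen after the data were seen, it had r = 0.83 (rho = 0.55, adjusted p = 0.0110) and 0.71 (rho = 0.45, adjusted p = 0.0242). Both values above that score rest on few tumors, since r was 0.37 and 0.30 without the 2 farthest. Over all tumors Wnt10a without the 2 farthest had r = 0.04 in wild-type and 0.70 (adjusted permutation p = 0.016) in heterozygote hosts, so the heterozygote relation there did not rest on these 2. Wnt6 with the same list had r = 0.76 (adjusted p = 0.00702) and 0.58 (adjusted p = 0.0705) over all tumors, and 0.24 and 0.32 without the 2 farthest. Above the score of 9 it had 0.73 and 0.70 (adjusted p = 0.0566 and 0.0793), and 0.16 and 0.50 without the 2 farthest. Basal scores were high in tumors 12 and 16 of irradiated wild-type hosts, at 10.58 and 10.24, and in 56 and 58 of heterozygote hosts, at 10.44 and 9.39. Tumor 58 did not have the highest basal score of the sham heterozygote group, which was 9.97. The other tumors of that group had Wnt6 of at most 6.27, so a high basal score there also went with low Wnt6. Lef1 with the basal list had r = -0.16 in wild-type and -0.57 (adjusted p = 0.0447) in heterozygote hosts over all tumors, and -0.36 and -0.58 above the score of 9, where neither passed.

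Lgr5 did not pass the filter on low values. It lay above the median of all values on 1 of 32 arrays of wild-type and 3 of 24 of heterozygote hosts, so its relations rest on dim signal. With the fibroblast and matrix list it had r = 0.75 (adjusted permutation p = 0.000468) in wild-type and 0.51 (adjusted p = 0.0705) in heterozygote hosts over all tumors. Above the score of 9 it had 0.71 (rho = 0.63, adjusted p = 0.00351), 0.55 without the 2 farthest, and 0.31 (adjusted p = 0.522). Axin2 with the T cell list had r = 0.64 (adjusted permutation p = 0.00702) and 0.34 (adjusted p = 0.311) over all tumors, and 0.22 and 0.64 without the 2 farthest. With the basal list it had 0.44 and 0.20 over all tumors, neither passing. Above the score of 9 in wild-type hosts Axin2 had r = 0.74 with the T cell list (rho = 0.41, adjusted p = 0.00796) and 0.67 with the basal list (rho = 0.71, adjusted p = 0.0242), and 0.33 and 0.60 without the 2 farthest tumors. Tumor 24, with the highest Axin2 of that genotype, had the highest T cell score, 8.10. In heterozygote hosts the same relations had r = 0.08 (rho = 0.29) and 0.14 (rho = 0.45). Without the 2 farthest tumors r was 0.42 and 0.64 there. The difference between genotypes was not tested.

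**Figure D4:**
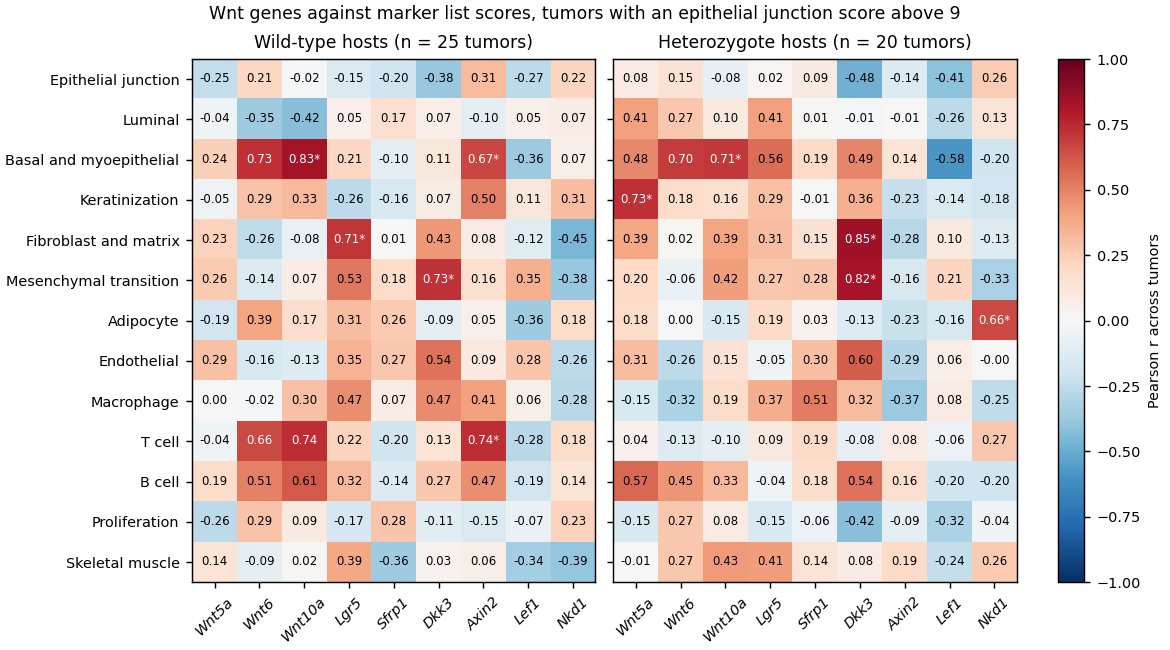
Pearson r across tumors (colour and number) between the 9 Wnt genes (x axis) and 13 marker list scores (y axis), for tumors with an epithelial junction score above 9 in wild-type (n = 25) and heterozygote hosts (n = 20). An asterisk marks an adjusted permutation p under 0.05 over the 234 relations. There are 10 asterisks, and the cells of Dkk3 with mesenchymal transition and of Wnt10a with the basal list carry one in both panels.

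The remaining lists of highest or lowest mean r were these. Over all tumors Wnt5a with the B cell list had r = 0.52 (adjusted permutation p = 0.0447) in wild-type and 0.53 in heterozygote hosts, and 0.19 and 0.57 above the junction score of 9. Sfrp1 with the fibroblast and matrix list had r = -0.45 and -0.09, Nkd1 with the adipocyte list 0.20 and 0.41 and with the macrophage list -0.34 and -0.42, Wnt6 with the macrophage list -0.40 and -0.18, and Lef1 with mesenchymal transition 0.11 and 0.05. None of these 5 passed in either genotype over all tumors. Above the score of 9 Nkd1 with the adipocyte list had 0.18 and 0.66, and the second passed (adjusted p = 0.0353). The epithelial junction list was the lowest for Wnt5a, Wnt10a, Lgr5 and Axin2 and the highest for Sfrp1. Of these only Lgr5 in wild-type hosts passed over all tumors (adjusted permutation p = 0.00078), which pools the 2 clusters of that score. In its upper cluster none passed, with r of -0.25 and 0.08 for Wnt5a, -0.02 and -0.08 for Wnt10a, -0.15 and 0.02 for Lgr5, 0.31 and -0.14 for Axin2, and -0.20 and 0.09 for Sfrp1. Here too the narrower range of the score can lower r by itself. In the 7 tumors of the lower cluster in wild-type hosts Lgr5 had r = -0.83 (exact p = 0.0107) and Wnt5a 0.75 (exact p = 0.0139), both with an adjusted p of 0.131 over 26 relations.

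The marker lists themselves were compared between irradiated and sham-irradiated hosts. None of the 30 measures (13 lists, the 18S control and the 3' minus 5' difference in each genotype) passed an adjusted exact permutation p of 0.05, and 2 had an unadjusted p under 0.05, the 18S control in wild-type hosts and the 3' minus 5' difference in heterozygote hosts. In heterozygote hosts, where the Wnt6 and Dkk3 differences were negative, the basal score was 8.45 ± 1.17 (SD, n = 6) with sham irradiation and 7.80 ± 0.76 (n = 18) with irradiation. The mesenchymal transition score was 8.52 ± 1.20 and 8.05 ± 0.79. The exact permutation p was 0.124 for the basal and 0.285 for the mesenchymal transition list (adjusted p = 0.7745 for both). Irradiated minus sham was of similar size for other lists in these hosts. It was 0.73 for adipocyte, -0.63 for keratinization, 0.49 for epithelial junction and -0.46 for fibroblast and matrix. The part of any of these lists in the Wnt6 and Dkk3 differences was not tested. Neither difference passed with or without the junction score as a covariate, and no fit used the basal or mesenchymal transition score.

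For each member the 3 other genes of highest r over the 32 tumors of wild-type hosts were taken, and their r over the 24 tumors of heterozygote hosts, which did not choose them, was read as a description. Wnt6 had 0.89 and then 0.79 with the growth factor gene Bmp7, the 4th highest of 12501 genes in heterozygote hosts, 0.90 and 0.54 with Fam178b, and 0.89 and 0.53 with Ccdc106. Dkk3 had 0.78 and 0.76 with Fam171a1, 0.75 and 0.76 with the kinesin Kif26b, and 0.73 and 0.54 with Soga1. Lef1 had 0.75 and 0.68 with Fam89a, the 9th highest, 0.76 and 0.51 with Rflna, and 0.79 and 0.08 with Otud7a. Of these genes all but Kif26b had a lower value in heterozygote than in wild-type hosts, as did all genes of the other members. Wnt5a had 0.71 and -0.04 with Adgrb1, 0.70 and 0.60 with Tnrc18, and 0.69 and 0.32 with Glt8d1. Wnt10a had 0.81 and 0.32 with Slamf8, 0.78 and 0.40 with Rgs10, and 0.76 and -0.03 with Fgd2. Lgr5 had 0.85 and 0.46 with the collagen gene Col5a1, 0.84 and 0.39 with Lrrc17, and 0.83 and 0.34 with Olfml2b. A lower value in the second genotype follows in part from choosing the highest values in the first. Sfrp1 had 0.78 and 0.18 with Stox2, 0.75 and 0.29 with Etv5, and 0.72 and 0.33 with Sema3b. Axin2 had 0.79 and 0.11 with H2-DMb2, 0.76 and -0.16 with Gsap, and 0.76 and 0.01 with Rab32. Nkd1 had 0.68 and 0.44 with Tcp11, 0.61 and 0.40 with Efcc1, and 0.61 and 0.35 with Siglec1.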

How the data were processed

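Total RNA of 56 tumors, 100 ng per array, was labelled for Affymetrix 3' expression arrays, per the labels' protocols. The values that the authors deposited are log2 intensities summarised to probe sets by RMA, per the submitters' processing notes, and no source used here gives the version of RMA. RMA draws all arrays of 1 run to a common distribution, so the apart-lying medians of the host genotypes were read as 2 runs, and levels were not tested across them. The difference and the average of the irradiation effects combine contrasts that each lie within 1 run.

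Of 45101 probe sets, 34958 had 1 gene symbol, 932 several and 9211 none in the annotation table used here, and those with 1 symbol were used. Symbols were updated by gene identifier to GRCm38.p6 (12467 of the 12508 tested genes matched). The filter asked for a value above 5.83, the median of all values, on 6 or more arrays, and the brightest probe set of a gene was tested. This cut is pooled over both host genotypes. It lies below the median of every wild-type array and above that of every heterozygote array, so counts of arrays above it do not compare the genotypes. limma 3.58.1 (lmFit, eBayes) in R 4.3.3 was fitted with 4 group means to all arrays, with Benjamini-Hochberg adjustment at 0.05 over all genes tested. Background signal of single arrays was not used here, and precision is limited by the number of arrays. The highest correlation between 2 arrays was 0.990, and no columns were identical.

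Relations across tumors are Pearson's r and Spearman's rho within a host genotype, with two-sided p from 100000 permutations in Python 3.11.15, adjusted over 72 pairs or 234 member and list relations. A list score is the mean log2 level of its genes that passed the filter. The scripts were tested on simulated data. The members and all gene lists were chosen with earlier results of these data known. All 9 members were named, with the lists of highest and lowest mean r, the 3 genes most like each member and, of each pathway list, up to 2 genes of lowest p. The restriction to a junction score above 9, and the other relations and Wnt genes that the text names, were chosen after their values were seen. The deleted gene's own level is left out.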

Additional observations from a re-analysis of the deposited data

Results flagged for a closer look

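The 9 tumors of sham-irradiated wild-type hosts and the 6 of sham-irradiated heterozygote hosts were checked for single tumors far from the others, 18 checks over the 9 genes, and 3 stood out by Dixon's criterion. Chance marks about 1 in 20 such groups. Wnt6 was 6.83 in sham tumor 17 of a wild-type host, above the next highest value of 6.23. Wnt6 was 8.36 in sham tumor 58 of a heterozygote host, above the next highest of 6.27, and this tumor also had Wnt10a at 9.04. Sfrp1 was 5.07 in sham tumor 52 of a heterozygote host, below the next lowest of 8.42. In that tumor Wnt5a, at 5.10, and Dkk3, at 5.97, were also the lowest of the group, and Axin2, at 8.93, the highest.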

How the results depend on the processing

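No alternative made a member pass in any of the 4 irradiation comparisons (other filters, arrays quantile normalized together, trended and robust eBayes, array weights, covariates, other probe sets, tumors left out). Lgr5 and Nkd1 were above the median of all values on 4 and 1 of 56 arrays, so their values rest on dim signal. Of the 378 values of the 36 member differences under alternatives other than leaving out 1 array, 27 changed sign, 11 of them with another probe set. All are values that did not pass, and where a cause is not in the construction of the alternative the cause was not tested. Over all genes, the count for the average of both genotypes, 1, was 19 with array weights, 15 over all probe sets, and 0 with the 18S control or the 3' minus 5' difference as a covariate, and the count for wild-type hosts was 1 over all probe sets.

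Without the tumors of low 18S control, Wnt5a and Lef1 in wild-type hosts were -0.23 and -0.15, Wnt10a and Lgr5 in heterozygote hosts 0.18 and 0.082, the Lef1 difference of effects 0.32, and the averages of Lgr5 and Axin2 0.14 and 0.060. Array weights gave -0.13 for Wnt5a in wild-type hosts and 0.019 for the Nkd1 difference of effects. With the 3' minus 5' covariate the differences of effects of Lef1 and Nkd1 were 0.40 and 0.022 and the average of Wnt5a 0.083. With the 18S covariate the averages of Lgr5 and Axin2 were 0.014 each. With the junction score as a covariate the average of Lgr5 was 0.035, and with arrays normalized together the Nkd1 difference of effects was 0.010. With other probe sets Wnt5a in wild-type hosts was -0.043 and its average 0.048, Sfrp1 in wild-type hosts 0.44 and 0.15 and its difference of effects -0.15, Lgr5 in heterozygote hosts 0.016 and its average 0.036, Nkd1 in heterozygote hosts -0.024 and -0.016, and the differences of effects of Lef1 and Nkd1 0.11 and 0.33.

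With each array left out in turn, the count for the average ran from 0 to 2. It was 0 without sham tumors 3, 60 or 64 of wild-type or 19, 38 or 52 of heterozygote hosts. It was 2 without sham tumors 31 or 46 or irradiated tumor 57 of wild-type hosts, or without sham tumor 58 or irradiated tumors 26 or 32 of heterozygote hosts. The other 3 counts stayed at 0. Values that changed sign then ranged from -0.049 to 0.42 for Wnt5a and -0.29 to 0.011 for Sfrp1 in wild-type hosts, and from -0.71 to 0.10 for Wnt10a and -0.41 to 0.031 for Lgr5 in heterozygote hosts. The differences of effects ranged from -0.22 to 0.18 for Lef1 and -0.044 to 0.058 for Nkd1, and the averages from -0.16 to 0.11 for Wnt6, -0.12 to 0.099 for Lgr5, -0.046 to 0.41 for Sfrp1 and -0.13 to 0.10 for Axin2.

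Of the pairs of members, 0 passed over all tumors, 1 with group means removed, 2 without the 2 farthest arrays, 3 with Spearman's rho and 2 above the junction score of 9, a restriction chosen after seeing the data. Of the member and list relations, 23 passed over all tumors, 7 as partial r on the junction score, 15 without the 2 farthest arrays, 13 with rho and 10 above the score of 9. Of the 23 list relations that passed, 1 changed sign under any of these alternatives: Lgr5 with the luminal list in wild-type hosts, from -0.68 (adjusted permutation p = 0.00234) to 0.074 as partial r and 0.050 above the score of 9. Over all 234 list relations 40 changed sign without the 2 farthest arrays, 29 with rho, 46 above the score of 9, 11 with group means removed and 2 with arrays normalized together, as did 39 of 216 as partial r. Of the list relations and pairs chosen for a closer reading, those that changed sign had not passed in that genotype. They were Axin2 with Nkd1 (-0.12 with group means removed, -0.027 without the 2 farthest, rho -0.071), Axin2 with Lef1 (0.079), Axin2 with the junction list (-0.081) and Lef1 with mesenchymal transition (-0.052), each without the 2 farthest in wild-type hosts, and in heterozygote hosts Wnt6 with macrophage (0.014, rho 0.14). Above the score of 9 they were the junction list with Wnt5a (0.085) and Lgr5 (0.021) in heterozygote and with Sfrp1 (-0.20) in wild-type hosts, and Sfrp1 with fibroblast and matrix (0.0051 in wild-type and 0.15 in heterozygote hosts). As partial r in heterozygote hosts they were Sfrp1 with fibroblast and matrix (0.20) and Lef1 with mesenchymal transition (-0.021). No paired analysis was possible because the replicate numbers of the titles do not recur across groups.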

Other observations

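Several tumors were extreme in more than 1 member. Tumor 60 of a sham-irradiated wild-type host was the highest of its group in Wnt5a, Wnt10a, Lgr5, Dkk3 and Axin2 (8.63, 7.41, 5.61, 9.41 and 7.23) and the lowest in Sfrp1 (8.12), with a junction score of 6.24. Tumor 16 of an irradiated wild-type host had Wnt5a at 11.73, Wnt6 at 9.81 and Sfrp1 at 11.07, each the highest of its host genotype, with Axin2 at 6.77 and Wnt10a at 6.98. Tumor 32 of an irradiated heterozygote host had the highest Wnt5a, 11.91, with Wnt10a at 5.13, Dkk3 at 5.96 and a keratinization score of 8.47. Tumor 57 of an irradiated wild-type host had the highest Lef1, 9.75, and the highest Nkd1, 5.99, with Axin2 at 7.36. Tumor 56 of an irradiated heterozygote host had the highest Lgr5, 7.25, and the lowest Lef1, 4.22, of all 56 tumors.

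Above the junction score of 9, Wnt5a in heterozygote hosts had r = 0.73 with the keratinization list (rho = 0.63, permutation p = 0.00023, adjusted p = 0.00897) and -0.05 in wild-type hosts. Nkd1 had r = 0.66 with the adipocyte list in heterozygote hosts (adjusted permutation p = 0.0353, and 0.30 without the 2 farthest tumors) and 0.18 in wild-type hosts. The difference between host genotypes was not tested for either.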
